A study of Rattus norvegicus with 2 samples.

Results

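The genes described here are the D cyclins Ccnd1, Ccnd2 and Ccnd3, the G1 kinases Cdk4 and Cdk6, the CDK inhibitors Cdkn1b, Cdkn1c, Cdkn2b and Cdkn2c, and the retinoblastoma gene Rb1. These 10 genes were chosen by name and found by matching the RefSeq accession of each probe to a rat gene symbol. All 10 had a probe well above background on both arrays, out of 10852 named genes kept for withdrawal and 10241 for the array labelled Bcl-2. Primary neural stem cells came from the cortex of SD rat embryos at day 14 and were grown in N2 medium with 10 ng/mL bFGF. All cells were transiently transfected by nucleofection with 4 µg of plasmid, either the empty vector MSCV-IRES-EGFP or rBcl-2-MSCV-IRES-EGFP, made to overexpress Bcl-2. No sorting of transfected cells, and no number of cultures, is given in the labels, and the share of cells that took up the plasmid is not given in the sources used here. On the withdrawal array, Cy5 (red) is labelled as empty vector cells without bFGF, kept in NB medium for 2 days, and Cy3 (green) as empty vector cells with bFGF. On the array labelled Bcl-2, red is labelled as Bcl-2 cells with bFGF and green again as empty vector cells with bFGF. The withdrawn cells therefore differ from the control both in bFGF and in medium.

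D cyclins bind CDK4 and CDK6 in G1, and the complexes phosphorylate the retinoblastoma protein, which then releases E2F factors and lets S phase genes be transcribed. INK4 inhibitors (Cdkn2b, p15, and Cdkn2c, p18) bind CDK4 and CDK6, while CIP/KIP inhibitors (Cdkn1b, p27, and Cdkn1c, p57) bind cyclin-CDK complexes more widely. Mitogens such as bFGF act on this switch largely through cyclin D1, and cortical precursors that leave the cycle are known for carrying p27 and p57.

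Each comparison rests on 1 array with no dye swap given in the labels, so there is no replicate check, no test and no p-value for any difference below. The arrays lay on 1 slide and were read in 1 scan, with median net signals of 189 (green) and 284.5 (red) for withdrawal and of 201 and 266 for the other array. The number of arrays limits the precision, and so does the single spot of most probes described here. Of the neural precursor markers, 7 of 8 had a kept probe on the withdrawal array, and 6 on the array labelled Bcl-2, among them Nes and Sox2. The probes of Gfap, Ptprc, Hbb, Pecam1 and Cldn5, which mark astrocytes, blood and vessels, were not well above background on either array. Other genes of the same lists were well above background on both arrays. These were Aqp4, Aldh1l1, S100b and Slc1a2 for astrocytes, Aif1, Cx3cr1 and Cd68 for microglia and blood, and Cdh5 and Kdr for endothelium. Which way the ratios run could not be settled from the labels. Against 1 control RNA in the same dye, ratios of separate treatments share the control. Yet r between the arrays was -0.67 over the log2 ratios of all gene spots, and -0.12 by the Feature Extraction ratio, both with dim spots included. Over the 10162 genes kept on both arrays, r of the log2 ratios was -0.76. Between the green channels, labelled alike, the SD of the log2 difference was 0.40 over 26861 spots. Between red of the withdrawal array and green of the other array, labelled differently, it was 0.14. Between red of the array labelled Bcl-2 and green of the withdrawal array it was 0.15, and between the red channels 0.38. Bcl2 itself was at 0.39 on the withdrawal array (0.29 by the Feature Extraction ratio). It was at -0.02 on the array labelled Bcl-2 (0.04 by the Feature Extraction ratio), and whether its probe lies in the transfected sequence is not known here. Within 0.05 on the log2 scale, after a constant, the authors' second deposited column matched both arrays' ratios multiplied for 100% of 28392 probes. It matched the ratio of the array labelled Bcl-2 for 7.05%. The arrays could hold 2 comparisons, as labelled, or 1 RNA pair with the dyes exchanged. A further arrangement would set Bcl-2 cells in red against withdrawn cells in green on the second array. These cannot be told apart here. With the dyes exchanged, the values of the array labelled Bcl-2 would not describe Bcl-2. In the further arrangement they would not be Bcl-2 over empty vector cells with bFGF. Values are therefore red over green as labelled, and with the sign turned every higher value becomes lower by the same size.

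Promoters of 6 of the 10 genes were found in RefSeq (build GRCr8), those of Ccnd3, Cdk4, Cdkn1b, Cdkn2b, Cdkn2c and Rb1. The 250 bases before the start of Cdk4 are shown because they hold a known motif of MYC, whose gene the same arrays measured, with values given beside those of Cdk4. Capitals mark CACGTG, the E-box that is a known motif of MYC, in Cdk4 (chr7:64771203-64771452, plus strand).
Cdk4: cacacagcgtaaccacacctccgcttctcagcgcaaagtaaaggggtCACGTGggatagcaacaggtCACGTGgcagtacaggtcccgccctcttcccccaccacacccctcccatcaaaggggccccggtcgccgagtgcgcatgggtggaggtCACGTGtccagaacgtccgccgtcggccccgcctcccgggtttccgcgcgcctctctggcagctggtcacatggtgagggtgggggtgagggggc
Searched on both strands, CACGTG, which is its own reverse complement, occurred 3 times, beginning 203, 183 and 95 bases before the start of Cdk4. It was in 0 of the other 5 promoters, each read before the start that RefSeq's promoter table uses. Of all 33469 promoters of this length, 5.59% held CACGTG. A second motif, TTCCCGC, was searched in the same way. Among the promoters found it was in Rb1 alone, beginning 113 bases before the start, and so not in Cdk4. Of all promoters, 3.36% held TTCCCGC. These are matches of letters and do not show binding.

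Ccnd1, which encodes cyclin D1, was dimmer in red where red is labelled without bFGF and brighter in red where red is labelled Bcl-2, and Cdk6, which encodes a kinase partner of cyclin D1, was the reverse. The other 8 genes lay between -0.01 and 0.40 on the withdrawal array and between -0.38 and 0.05 on the other, in log2 ratio. By the rule used for all genes, an absolute log2 ratio of at least 1 with all kept probes of 1 sign, 0 of the 10 genes were called 2-fold on the withdrawal array, where 2.89% of genes were called, and 0 on the other, where 2.56% were. Past a lower limit of 1.5-fold lay 2 of the 10 on each array, Ccnd1 and Cdk6 in both cases, beside 10.8% of all genes for withdrawal and 8.95% for the other array. The median log2 ratio of the 10 genes was 0.25 for withdrawal (-0.25 with the sign turned), against 0.03 for all genes. For the other array it was -0.11 (0.11 with the sign turned), against -0.01 for all genes.

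**Figure D1:**
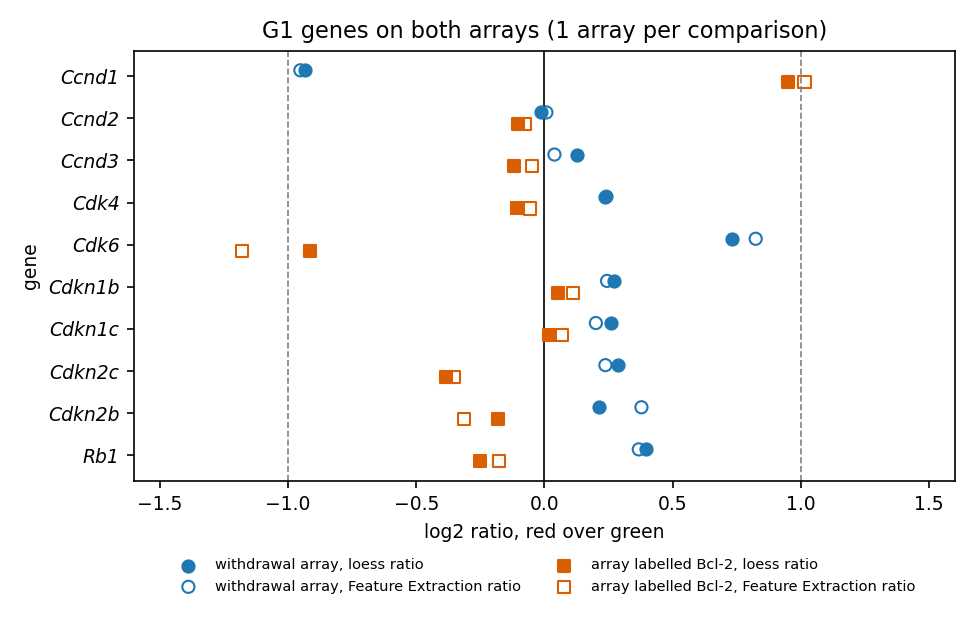
Log2 ratio of red over green (x axis) for the 10 genes (y axis) on the withdrawal array (circles) and the array labelled Bcl-2 (squares), 1 array each, so no error bars. Filled symbols are the loess ratio, open symbols the Feature Extraction ratio, and dashed lines mark 2-fold. Ccnd1 (-0.93 and 0.95) and Cdk6 (0.73 and -0.91) lie apart from the other 8 genes.

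Among the D cyclins, Ccnd1 had log2 intensities, scaled between arrays, of 12.75 in red and 13.68 in green on the withdrawal array. The array labelled Bcl-2 gave 13.60 in red and 12.65 in green. Thus green of the withdrawal array and red of the other array were high, and the remaining channels low, pairs that were formed from these same values. The log2 ratio was -0.93 on the withdrawal array (0.93 with the sign turned), which is 1.91-fold brighter in green, and 72 of 10852 genes lay at or below it. The other array gave 0.95 (-0.95 with the sign turned), or 1.93-fold brighter in red, and 65 of 10241 genes lay at or above it. With both signs turned, 72 genes would lie at or above Ccnd1 on the first array and 65 at or below it on the second. Median centring without loess brought the log2 ratio of Ccnd1 to -0.64 on the withdrawal array, and gave 0.998 on the other.

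Ccnd1 has 1 probe, printed once, so its ratio rests on 1 spot per array. The scanner software estimates an error of each ratio from spot noise, which covers no difference between cultures. By the deposited values, the Feature Extraction log2 ratio of Ccnd1 was -0.95 with an error of 0.22 on the withdrawal array and 1.01 with an error of 0.22 on the other. Both exceed 2 errors. This held on each array for 2 of the 10 genes, Ccnd1 and Cdk6, and for 29.8% of all kept probes on the withdrawal array, and 29.5% on the array labelled Bcl-2. At 1.01, Ccnd1 passed 2-fold by this ratio on the array labelled Bcl-2, where this ratio called 10.2% of genes, 3.5% higher in red and 6.74% lower. On the withdrawal array it called 0 of the 10 genes, and 10.4% of all genes, 8.17% higher and 2.18% lower.

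Ccnd2, the cyclin D of many neural progenitors, did not share the pattern of Ccnd1. Its log2 intensities were 12.53 in red and 12.54 in green on the withdrawal array, and 12.50 and 12.60 on the array labelled Bcl-2, a span of 0.10 over the 4 channels. The log2 ratio was -0.01 on the withdrawal array, and 0.01, 0.27 and 0.08 by the Feature Extraction ratio, median centring and the authors' deposited table, so it has no fixed sign there. On the array labelled Bcl-2 it was -0.10 (0.10 with the sign turned). Ccnd3, the third member of the family, had 10.45 in red and 10.33 in green on the withdrawal array, and 10.24 and 10.36 on the array labelled Bcl-2. Its log2 ratios were 0.13 and -0.12 (-0.13 and 0.12 with the signs turned). By the Feature Extraction ratio, neither Ccnd2 nor Ccnd3 exceeded 1 deposited error on either array.

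Of the 2 kinases, Cdk6 had log2 intensities of 8.84 in red and 8.11 in green on the withdrawal array, and of 7.92 in red and 8.84 in green on the other. Red of the withdrawal array and green of the other differed by less than 0.01 and were the high pair. The log2 ratio was 0.73 on the withdrawal array (-0.73 with the sign turned), or 1.66-fold brighter in red, with 5.21% of genes higher. The other array gave -0.91 (0.91 with the sign turned), or 1.88-fold brighter in green, with 2.59% of genes lower. The Feature Extraction ratio gave 0.82 and -1.18 with deposited errors of 0.22 and 0.24, so that Cdk6 passed 2-fold on the array labelled Bcl-2. It did so too with a smaller normexp offset (-1.05), with median centring (-1.04) and by the quotient of the authors' deposited columns (-1.25). In these settings 3.39%, 3.11% and 10.3% of genes were called. The quotient is not a value the authors deposited, since their second column matched the product of both arrays' ratios. Cdk6 had net signals of 507 in red and 198.5 in green on the withdrawal array, beside medians of 284.5 and 189 over all gene spots. On the array labelled Bcl-2 its net signals were 220.5 and 317, beside medians of 266 and 201. Its probe is 1 spot per array, well above background in all channels.

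Cdk4, the other D cyclin kinase, had log2 intensities of 13.85 in red and 13.62 in green on the withdrawal array, and of 13.64 and 13.75 on the array labelled Bcl-2. The channels spanned 0.24. Its log2 ratios were 0.24 on the withdrawal array, and -0.11 on the array labelled Bcl-2 (-0.24 and 0.11 with the signs turned), the first near 1.18 deposited errors and the second under 1. Myc encodes the factor whose known motif matches the letters printed in capitals in the Cdk4 promoter, and its binding there was not tested. On the withdrawal array Myc was 2-fold lower in red at -1.40 (1.40 with the sign turned). It was at 0.86 on the other array (-0.86 with the sign turned). Cdk4 was not 2-fold on either.

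**Figure D2:**
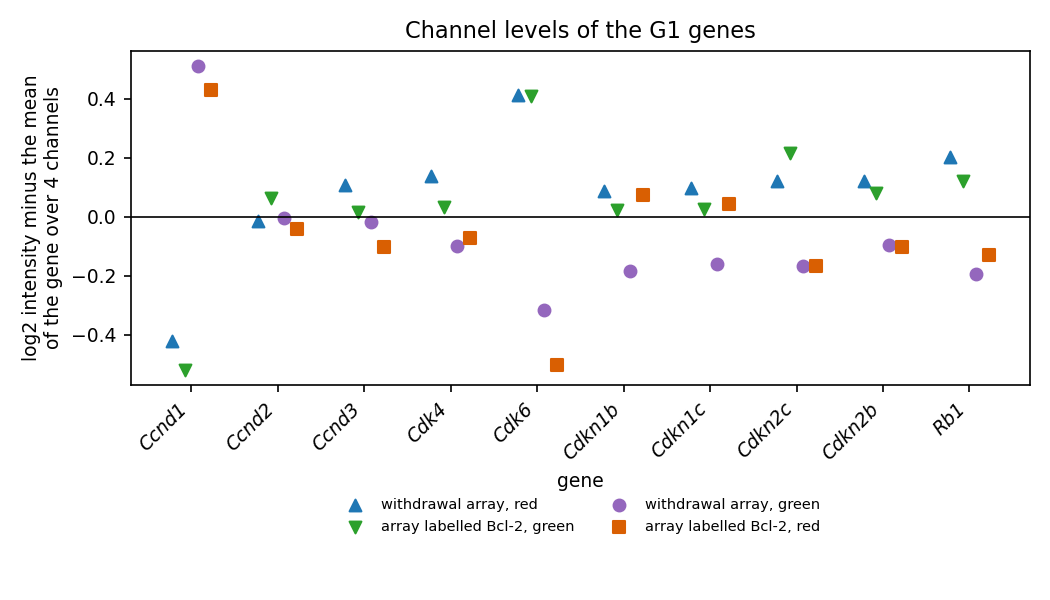
Log2 intensity of each gene in each of the 4 channels (y axis), minus the mean of that gene over the channels, for the 10 genes (x axis), with 1 point per channel and no replicates. For Ccnd1 and Cdk6 withdrawal red and Bcl-2-array green lie together, and the remaining channels lie apart from them.

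As over all spots, the green channels of Ccnd1 and Cdk6, labelled as the same control, stood apart. They differed by 1.03 for Ccnd1 and by -0.73 for Cdk6, withdrawal array minus the other, on the log2 scale. Red of the withdrawal array and green of the other differed by 0.10 for Ccnd1 and 0.0044 for Cdk6, and by at most 0.10 in size over the 10 genes. Red of the array labelled Bcl-2 minus green of the withdrawal array was -0.08 for Ccnd1 and -0.19 for Cdk6, and largest in size for Cdkn1b at 0.26. For Cdkn1b and Cdkn1c, at 0.26 and 0.20, this difference was as large as that between the green channels, at -0.21 and -0.19. Which channel holds the control level of Ccnd1 or Cdk6 cannot be told apart here.

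Among the CIP/KIP inhibitors, Cdkn1b, which encodes p27, has a probe printed on 10 spots of each array, so that its spot error can be given. On the withdrawal array these spots ran from 0.23 through a median of 0.26 to 0.32 in log2 ratio, with a mean of 0.27 ± 0.03 (SD, n = 10 spots of 1 array). On the array labelled Bcl-2 they ran from 0.02 through 0.05 to 0.09, with a mean of 0.05 ± 0.02 (SD, n = 10 spots of 1 array). All spots lay above 0 on both arrays. Over all kept probes with at least 5 spots, the median SD over spots was 0.04 on each array (1180 probes for withdrawal and 1144 for the other). The spread covers spot noise alone, since the spots share 1 hybridised RNA pair. With the signs turned the means are -0.27 and -0.05. The log2 intensities were 11.40 in red and 11.13 in green on the withdrawal array, and 11.39 and 11.34 on the array labelled Bcl-2, so green of the withdrawal array was the lowest channel and the others lay within 0.07. A fold of 1.21 in red on the withdrawal array was exceeded by 23.4% of genes.

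Cdkn1c, which encodes p57, has 2 kept probes of different accessions. On the withdrawal array they gave 0.19 and 0.33, both above 0, and on the other 0.03 and 0.00. By the Feature Extraction ratio these came to 0.44 and 1.5 deposited errors on the first array and 0.26 and 0.40 on the second. On the second no sign can be read. The gene had log2 intensities of 10.05 in red and 9.79 in green on the withdrawal array, and of 9.99 and 9.98 on the array labelled Bcl-2. As for Cdkn1b, green of the withdrawal array was the lowest channel. The log2 ratios were 0.26 and 0.02 (-0.26 and -0.02 with the signs turned), the second turning to -0.08 with median centring, with 24.6% and 45.7% of genes higher.

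**Figure D3:**
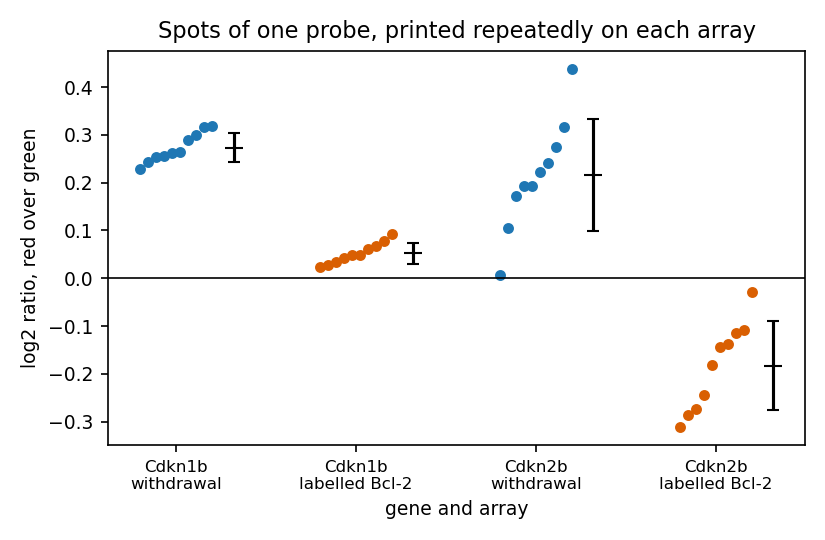
Log2 ratio of red over green (y axis) for each of the 10 spots of the Cdkn1b probe and the 10 spots of 1 Cdkn2b probe, by gene and array (x axis). Points are spots of 1 array, sorted, and bars are mean ± SD over spots. The Cdkn1b spots run from 0.23 to 0.32 on the withdrawal array and from 0.02 to 0.09 on the other. The Cdkn2b spots change sign between arrays with a wider spread.

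Of the INK4 inhibitors, Cdkn2c, which encodes p18, had log2 intensities of 9.95 in red and 9.66 in green on the withdrawal array, and of 9.66 and 10.04 on the other. Red of the withdrawal array and green of the other were the high pair, as for Cdk6, and lay 0.09 apart. The log2 ratios were 0.29 and -0.38 (-0.29 and 0.38 with the signs turned), and 22.2% of genes were higher on the first array and 13.4% lower on the second. Neither exceeded 2 deposited errors, at 1.16 and -1.71 errors.

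Cdkn2b, which encodes p15, a known TGF-beta target, was dim. Its probe with 10 spots ran from 0.01 through 0.21 to 0.44 on the withdrawal array, with a mean of 0.22 ± 0.12 (SD, n = 10 spots of 1 array). On the array labelled Bcl-2 it ran from -0.31 through -0.16 to -0.03, with a mean of -0.18 ± 0.09 (SD, n = 10 spots of 1 array). The SD was wider than for the brighter Cdkn1b probe. A second probe was kept on the withdrawal array at 0.21, with green not well above background. On the other array neither channel was well above background, so this probe was not kept, and it read 0.12, opposite in sign to the first probe. Its net signals on the withdrawal array were 23.5 in red and 67.5 in green. Its Feature Extraction log2 ratio there was 0.51 with an error of 0.68, so it adds little to the first probe. The gene value was 0.21 and -0.18 (-0.21 and 0.18 with the signs turned). With median centring the first fell to 0.02, and with no filter on dim probes the second came to -0.03. Its log2 intensities were 7.77 in red and 7.56 in green on the withdrawal array, and 7.55 and 7.73 on the array labelled Bcl-2.

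Rb1, which encodes the retinoblastoma protein, had log2 intensities of 10.65 in red and 10.25 in green on the withdrawal array, and of 10.32 and 10.57 on the array labelled Bcl-2. The log2 ratios were 0.40 and -0.25 (-0.40 and 0.25 with the signs turned). On the withdrawal array 15.1% of genes were higher, which makes Rb1 the second highest of the 10 genes after Cdk6, and on the other array 22.1% were lower. The ratios came to 1.78 and -0.87 deposited errors. In RNA of many cells, fewer cells of a type and less RNA per cell cannot be told apart, for this gene or any other here.

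The other genes of the pathway were described by 9 lists, of which 91 of 105 genes were measured. On the withdrawal array 2 of the 91 were 2-fold higher in red and 2 were 2-fold lower, beside 2.42% and 0.47% of all genes, and on the array labelled Bcl-2, 0 were higher and 2 lower, beside 0.557% and 2% of all genes. Id4 and Ccng1 were the higher ones of the withdrawal array and the lower ones of the other, and Myc and Cdc6 the lower ones of the withdrawal array.

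S phase targets of E2F lay mostly lower in red on the withdrawal array, beside the opposite on the other. Of 17 measured S phase targets of E2F, 16 were below 0 there, beside 45.8% of all genes. The median was -0.43 (0.43 if the sign is turned), and 1, the origin licensing gene Cdc6, was 2-fold lower at -1.12. Median centring without loess placed the list at -0.19 and Cdc6 at -0.86, short of 2-fold. On the array labelled Bcl-2, 15 of the 17 were above 0, beside 48.2% of all genes. The median was 0.27 (-0.27 if the sign is turned), 0 were 2-fold and Cdc6 was at 0.71. Rrm2, a ribonucleotide reductase subunit gene, was the 1 above 0 on the withdrawal array, at 0.09. The 6 measured E2F and DP genes had medians of -0.30 and 0.29 (0.30 and -0.29 with the signs turned), from Tfdp1, the main DP partner, at -0.72 and 0.41 to Tfdp2 at 0.46 and -0.45. The 6 cyclin E, cyclin A and partner genes had medians of -0.26 and 0.32 (0.26 and -0.32 with the signs turned), though the first was 0.06 with median centring. The phosphatase gene Cdc25a, which activates CDK2, was lowest of them at -0.76 and Ccne1 highest at 0.04 on the withdrawal array, with 0.45 and 0.27 on the other. In neither list was a gene 2-fold.

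The 4 other CDK inhibitors had medians of 0.44 and -0.33 (-0.44 and 0.33 with the signs turned), and 0 were 2-fold. Cdkn1a, which encodes p21, was the highest at 0.85 on the withdrawal array, and -0.81 on the array labelled Bcl-2, while Cdkn2a lay at -0.11 and 0.19. Of 7 measured pocket proteins and RB partners 0 were 2-fold, with medians of -0.0027 and 0.13, the first turning to 0.26 with median centring. Rbl2, the p130 pocket protein of quiescent cells, was highest at 0.77 and -0.23, and Lin54 of the DREAM complex lowest at -0.44 and 0.13.

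Of 19 measured inputs to cyclin D1 and to the inhibitors, Id4, an inhibitor of basic helix-loop-helix factors, was 2-fold on both arrays at 1.27 and -1.33 (-1.27 and 1.33 with the signs turned). Myc was 2-fold lower on the withdrawal array alone by this limit, and that difference between the arrays was not tested. The list had medians of -0.04 and 0.02, which turned to 0.16 and -0.05 with median centring. The genes of p27 and cyclin turnover had medians of -0.10 (0.12 with median centring) and 0.08 with 0 of 15 at 2-fold, from Cul4b, a ubiquitin ligase scaffold gene, at -0.59 and 0.66 to Rbx1 at 0.20 and -0.07. CDK-activating kinase and chaperone genes had medians of -0.29 (0.05 with median centring) and 0.11 with 0 of 5 at 2-fold, from Hsp90aa1 at -0.37 and 0.31 to Hsp90ab1 at 0.06 and 0.03. Among 12 measured relatives of the D cyclins and their kinases, Ccng1, which encodes cyclin G1, a p53 target, was 2-fold on both arrays at 1.63 and -1.49 (-1.63 and 1.49 with the signs turned). Cdk9 was lowest at -0.65 and 0.43, and the medians were -0.18 (0.10 with median centring) and 0.05.

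**Figure D4:**
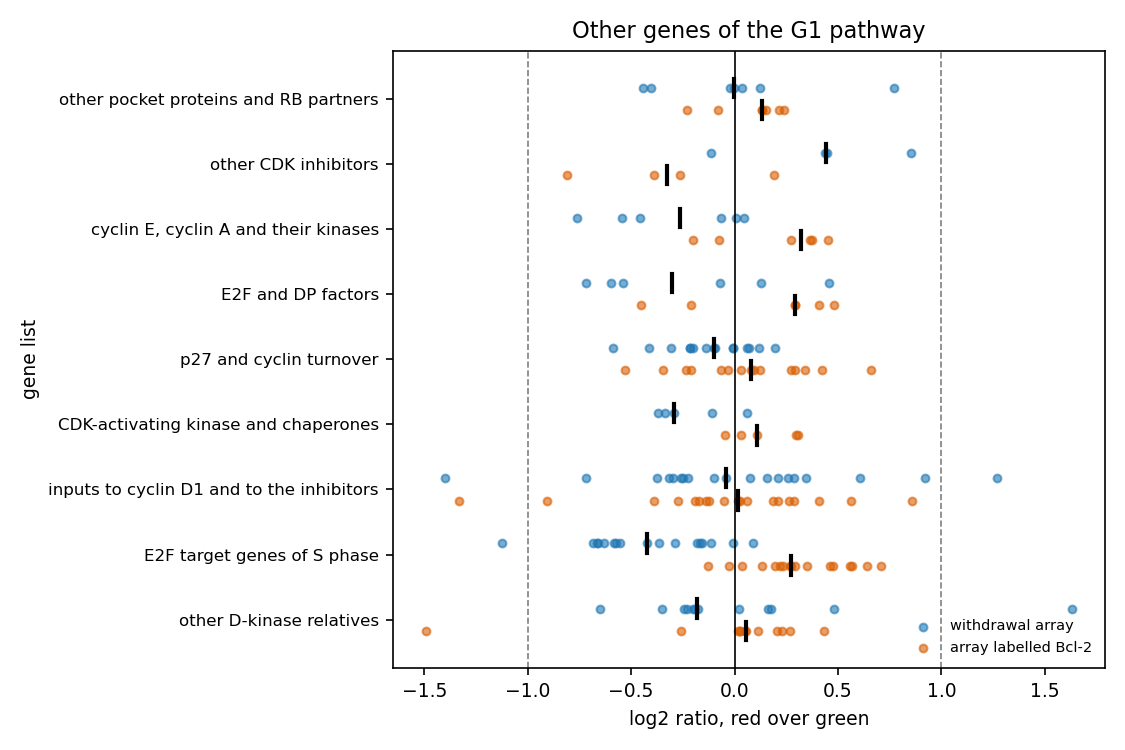
Log2 ratio of red over green (x axis) of the measured genes of 9 lists of the G1 pathway (y axis), with 1 point per gene and array. Black bars are list medians and dashed lines mark 2-fold. The S phase targets of E2F have medians of -0.43 on the withdrawal array and 0.27 on the array labelled Bcl-2.

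By distance over the 2 log2 ratios, the 5 genes nearest to Ccnd1 were Dhcr7, Tnfsf9, Gnl3, Tmem254 and Aacs, at distances of 0.03 to 0.09 on the log2 scale. Dhcr7, of sterol synthesis, was at -0.92 and 0.92, and Gnl3, which encodes nucleostemin, a nucleolar protein of stem cells, at -0.98 and 0.92. Tnfsf9 was at -0.98 and 0.97, Tmem254 at -0.87 and 0.97, and Aacs at -0.94 and 1.04. Such likeness rests on 2 arrays that are labelled as sharing a control and is a description.

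Markers of the cell types that the cultures could hold were described by 7 lists, in which the genes named are those called 2-fold. The neuron list had 5 of 6 genes measured, with medians of 0.60 and -0.49, and Tubb3, neuronal tubulin, was 2-fold higher on the withdrawal array at 1.03 and at -0.58 on the other. The astrocyte list had 4 of 5 measured, with medians of 0.92 and -0.69. Aldh1l1 was 2-fold on both arrays, at 2.61 and -2.02, and S100b on the withdrawal array, at 1.22 and -0.96. The fibroblast and meninges list had medians of 0.55 on the withdrawal array (5 measured of 5) and -1.41 on the other (4 measured). Acta2 was 2-fold on both, at 2.19 and -1.93, and the collagen genes Col1a1 and Col1a2 were 2-fold lower on the array labelled Bcl-2, at -1.10 and -1.71, with 0.55 and 0.74 on the withdrawal array. Oligodendrocyte lineage genes had medians of 0.16 and -0.23, microglia and blood genes -0.17 and 0.13 with 3 of 5 measured, and endothelial genes 0.19 and -0.07 with 2 of 4 measured, and 0 genes of these lists were 2-fold. The neural precursor list had medians of 0.18 and -0.20, and Fabp7, a radial glia gene, was 2-fold higher on the withdrawal array at 1.26 and at -0.91 on the other. With the signs turned each of these medians and ratios changes sign. The part of other cell types in the ratios of Ccnd1, Cdk6 and the other genes was not tested.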

How the data were processed

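Members, gene lists and rules were chosen with earlier results of these data known. Spot and background intensities, deposited by the authors as pixel medians without normalization, were made with Agilent Feature Extraction 11.5.1.1 per the file headers, while the submitters' processing notes name version 8.5.1.1. The deposited files also give the log10 ratio (red over green) and its error, a p-value from the spot noise model (not used) and flags of 0 or 1 per the file headers. The authors' deposited table holds a linear ratio of 29782 probes with unstated scale and direction and medians of 0.932 and 0.944. Within 0.05 on the log2 scale, after a constant, its first column matched the withdrawal ratio and its second both arrays' ratios multiplied, for 100% of 28392 probes each. The quotient of the columns was therefore used for the array labelled Bcl-2.

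Signals were corrected by normexp (offset 50), normalized by loess within arrays with control spots at weight 0, and scaled by Aquantile for channel levels, in limma 3.58.1 under R 4.3.3, which was also tested on simulated data. Outlier spots were left out (534 and 576), spots of a probe averaged, and probes well above background in at least 1 channel kept (20328 and 19026). RefSeq accessions (assembly GRCr8, names only) named 60.4% of probes, and a gene is the median of its kept probes. Named genes were the 10 genes, each pathway list's genes called on either array and its highest and lowest on the withdrawal array, and the 5 genes nearest to Ccnd1. Called marker genes were named after their values were seen. With 1 array per comparison no test was run. Alternatives were a normexp offset of 10, the Feature Extraction ratio, median centring without loess, the deposited table, probes well above background in both channels, no filter, and the mean over probes.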

Additional observations from a re-analysis of the deposited data

Results flagged for a closer look

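Ccnd1 and Cdk6 lay past 1.5-fold in opposite directions on the arrays, and were noted for that. Opposite directions are not particular to these genes, since r between the arrays was -0.76 over the 10162 genes kept on both. In log2 ratio, Ccnd1 was at -0.93 on the withdrawal array and 0.95 on the array labelled Bcl-2. Cdk6 had 0.73 on the first and -0.91 on the second. The difference between the arrays was not tested, because there is 1 array per comparison and both are labelled as sharing a control.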

How the results depend on the processing

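Of 140 values of single genes under 7 alternatives, 140 lay within 1.5-fold of the value reported, and 4 had the other sign. Those 4 were for Ccnd2 on the withdrawal array (0.01 to 0.27) and Cdkn1c on the array labelled Bcl-2 (-0.08 with median centring). The filter on both channels, no filter and the mean over probes could change little, since most of the 10 genes have 1 kept probe, well above background in both channels. Under them only Cdkn2b moved, to 0.22 on the withdrawal array (filter on both channels) and -0.03 on the other (no filter). The count of 2-fold genes on the array labelled Bcl-2 went from 0 to 1, for Cdk6, with a normexp offset of 10 and with median centring. It did so too, again for Cdk6, by the quotient of the authors' deposited columns. With the Feature Extraction ratio it went to 2 (Cdk6 and Ccnd1). The count stayed 0 under the other 3 alternatives, which could change little, and on the withdrawal array under all 7. The median of the 10 genes ranged from 0.24 to 0.52 on the withdrawal array and from -0.15 to -0.07 on the other. Median centring moved the median of all genes on the withdrawal array from 0.03 to 0.17. The share of all genes called 2-fold on the withdrawal array was 2.89%, and 4.94% with the offset of 10, 10.4% with the Feature Extraction ratio, 4.67% with median centring and 10.7% with the deposited table. On the other array it was 2.56%, and 10.2% with the Feature Extraction ratio, 10.3% with the quotient of the deposited columns and 1.64% with no filter on dim probes. Cdkn2b has dim probes and Cdk6 a probe with net signals nearer the array medians, and signal over background limits the values of both. No paired analysis was possible because each group has 1 array, and for the same reason no replicate could be left out.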
